A study of Mus musculus with 5 samples.

Results

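The genes described here are 8 genes of mouse liver that hepatocytes near the portal vein are known to use and that lie outside the urea cycle: Cdh1, Hsd17b13, Pigr, Ctsc, Etnppl, Sox9, Uox and Aldh1b1. They were taken by symbol from a given list, and all 8 were found among the 31053 genes measured. They were read in hepatocytes of 5 droplet single-cell RNA libraries from C57BL/6J mice: normal mice at postnatal day 14 (P14), an adult control, and adults whose livers had been cut back by partial hepatectomy (PHx), the removal of 2/3 of the organ, either 24 h, 48 h or 96 h earlier. Each group was 1 library, and adults were 8 weeks old at the operation. The labels disagree on the adult control, which a protocol lists among the operated mice whereas its title and source call it a control. Here it serves as control. The labels give no transgene, no sex and no number of animals, and do not say whether animals were pooled. The control's label carries the code 2 where all other labels carry 1, and whatever that code stands for cannot be told apart from the group. Liver cells had been freed by a perfusion in 2 steps and passed through a dead-cell removal kit.

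Blood enters the liver lobule at the portal vein and leaves at the central vein, and hepatocytes along that path divide the work between them. Cells on the portal side are known for gluconeogenesis, urea formation and oxidation of amino acids, and cells on the central side for drug metabolism and glutamine formation, a pattern that Wnt signals from the central vein help to set. The 8 genes serve several roles on the portal side. Cdh1 encodes E-cadherin, the adhesion protein of epithelial adherens junctions. Sox9 is a transcription factor of bile duct cells that is also known from a few hepatocytes beside the portal tract. Pigr encodes the polymeric immunoglobulin receptor, which carries IgA across epithelia, and Ctsc encodes cathepsin C, a lysosomal dipeptidyl peptidase. Hsd17b13 encodes a lipid droplet enzyme, Etnppl the phospho-lyase that breaks down phosphoethanolamine, Uox the peroxisomal urate oxidase, and Aldh1b1 a mitochondrial aldehyde dehydrogenase. With 1 library per group no difference was tested between conditions. All intervals are 95% intervals of counting error alone, and leave out the spread between animals. Those of CPM and of ratios pool UMIs over cells, and so leave out the spread between cells too.

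On the mouse genome build GRCm38 (mm10), GENCODE M21 places Cdh1 on chromosome 8 from 106603351 to 106670246, Sox9 on chromosome 11 from 112782224 to 112787760, and Pigr on chromosome 1 from 130826684 to 130852249. Ctsc lies on chromosome 7 from 88278085 to 88310888, and Hsd17b13 on chromosome 5 from 103955440 to 103977410. Etnppl and Uox share chromosome 3, the former from 130617448 to 130637521 and the latter from 146570426 to 146632305, and Aldh1b1 lies on chromosome 4 from 45799022 to 45804604. All 8 are protein-coding, and Hsd17b13 alone is on the minus strand. Promoter windows of RefSeq (GRCm38.p6) matched 6 of the 8 genes. The 250 bases before the start site are shown for Aldh1b1, Ctsc and Hsd17b13, which had steep slopes across the lobule in the adult libraries below, and for Uox, which had the flattest. The Uox window lies inside the span that GENCODE gives for the gene, because the RefSeq start used for it is farther downstream, and 22 bases of the Hsd17b13 window, with its match at 18 bases, lie inside that gene's span too. Capitals mark the core letters of a TCF/LEF site, CTTTGA, or their complement TCAAAG, the kind of site through which Wnt signals act.

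Aldh1b1, chr4:45798772-45799021, plus strand: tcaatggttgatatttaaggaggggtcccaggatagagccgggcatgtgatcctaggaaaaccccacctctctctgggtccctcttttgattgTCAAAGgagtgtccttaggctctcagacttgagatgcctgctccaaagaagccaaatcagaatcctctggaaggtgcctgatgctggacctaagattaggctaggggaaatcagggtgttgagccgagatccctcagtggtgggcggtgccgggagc
Ctsc, chr7:88277835-88278084, plus strand: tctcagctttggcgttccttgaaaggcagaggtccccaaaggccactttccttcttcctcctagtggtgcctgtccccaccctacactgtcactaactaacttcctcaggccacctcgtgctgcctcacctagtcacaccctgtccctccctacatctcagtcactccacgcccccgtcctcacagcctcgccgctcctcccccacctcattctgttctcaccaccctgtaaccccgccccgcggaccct
Hsd17b13, chr5:103977389-103977638, minus strand: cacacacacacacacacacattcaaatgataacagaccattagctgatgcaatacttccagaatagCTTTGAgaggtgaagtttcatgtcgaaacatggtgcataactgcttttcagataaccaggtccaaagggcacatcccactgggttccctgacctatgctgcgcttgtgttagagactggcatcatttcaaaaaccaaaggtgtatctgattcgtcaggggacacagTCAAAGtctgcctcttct
Uox, chr3:146596899-146597148, plus strand: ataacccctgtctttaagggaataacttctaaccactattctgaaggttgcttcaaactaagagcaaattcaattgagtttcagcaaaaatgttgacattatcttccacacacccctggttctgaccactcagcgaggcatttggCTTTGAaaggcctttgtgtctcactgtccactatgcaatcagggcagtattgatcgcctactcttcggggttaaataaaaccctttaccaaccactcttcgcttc

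These letters were found once in the Aldh1b1 window, beginning 157 bases before the start site, and once in the Uox window, at 105 bases. The Hsd17b13 window held 2 matches, at 184 and 18 bases, and the Ctsc window did not hold them. Among all 32851 promoter windows of that length, 13.8% held them on either strand. The 2 other motifs searched on both strands were the HNF1 core GTTAAT (6.43% of all windows) and the TATA box letters TATAAA (12.4%), and none of the 4 windows held either. These letters were present in both steep and flat genes, and a match is a description of the sequence alone.

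A barcode was called a hepatocyte when it had at least 5000 unique molecular identifiers (UMIs, counted molecules), between 10% and 30% of them from mitochondrial genes, and at least 1% from Alb, Apoa1 and Ttr, which encode abundant plasma proteins. This left 2106 P14 cells, 925 control cells, and 1170, 719 and 771 cells of the libraries taken 24 h, 48 h and 96 h after PHx, 5691 in all, with 3 barcodes occurring in more than 1 library. All 8 hepatocyte markers of a fixed list were detected in every library. Median depth lay between 18527 and 38923 UMIs per cell, and the median share of Alb, Apoa1 and Ttr between 2.10% at 24 h and 11.2% in P14. Free RNA in empty droplets came to 1328 UMIs per droplet in the adult control, against 290.0 to 795 in the other 4 libraries. Levels are UMIs scaled to a constant total (CPM, counts per 1000000 non-mitochondrial UMIs) after summing over the hepatocytes of a library. In such sums, fewer cells that use a gene and less RNA per cell cannot be told apart.

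The plot of CPM by library shows that 7 of the genes were at their lowest adult level at 48 h, and that Sox9 was at its lowest adult level in the control. Pigr was the gene furthest from its adult level in P14.

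**Figure D1:**
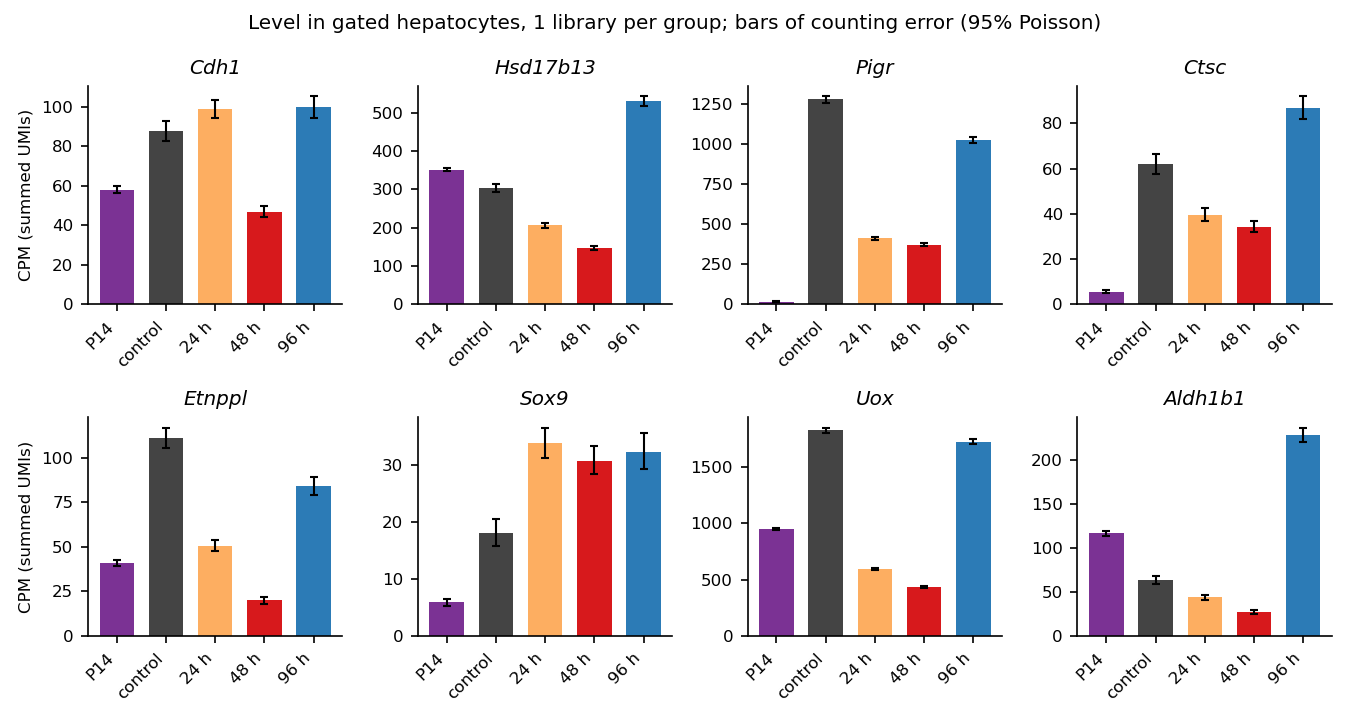
Level of each gene in gated hepatocytes, in CPM of summed UMIs on a linear axis from 0, for P14, the adult control and 24 h, 48 h and 96 h after PHx; bars are 1 library each and error bars are 95% Poisson intervals. Hsd17b13, Uox and Aldh1b1 have their lowest bar at 48 h, Pigr is nearly absent in P14 (17.1 CPM against 1279 in the adult control), and Sox9 is higher in all 3 libraries after PHx than in the control.

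Cdh1 stood at 57.9 CPM in P14 and 87.6 in the control, then at 98.6, 46.9 and 99.6 at 24 h, 48 h and 96 h. The 48 h library was the low one among adults, 1.87-fold below the control (1.71 to 2.03; past 2-fold, on log2(CPM + 1), with cells of 10% to 20% mitochondrial UMIs, 2.25-fold, without mitosis genes, 2.15-fold, or without 3 or more UMIs of non-hepatocyte markers, 2.05-fold), and the levels at 24 h and 96 h did not differ beyond counting error (ratio 1.01, 0.942 to 1.08). Sox9 measured 5.87 CPM in P14, 18.02 in the control, and after PHx 33.8 (24 h), 30.7 (48 h) and 32.3 (96 h). All 3 libraries after PHx lay above the control, by 1.87-fold (1.61 to 2.18), 1.70-fold (1.47 to 1.99) and 1.79-fold (1.53 to 2.11), and these 3 could not be ordered among themselves. On log2(CPM + 1) the 96 h value was 3.24-fold over 10% to 20% mitochondrial UMIs, which left 53 cells there, and the 24 h value 2.10-fold in cells without mitosis genes. In P14, 9 of the 2106 hepatocytes carried a UMI of the duct keratins Krt19 or Krt7 or of the duct adhesion molecule Epcam; they held 128 of the 379 Sox9 UMIs, and without them Sox9 was at 3.91 CPM (3.44 to 4.42). With all cells it was 3.07-fold below the control in P14 (2.60 to 3.62), but 1.86-fold over 10% to 20% mitochondrial UMIs and 4.36-fold without cells that had 3 or more UMIs of non-hepatocyte markers. No hepatocyte of the control or of the 24 h library had a UMI of Krt19, Krt7 or Epcam.

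Pigr stood at 17.1 CPM in P14 and 1279 in the control, then at 412, 374 and 1028 at 24 h, 48 h and 96 h. It was 74.9-fold lower in P14 than in the control (70.5 to 79.7), 3.104-fold lower at 24 h (3.02 to 3.19) and 3.42-fold lower at 48 h (3.33 to 3.52). By 96 h the difference had narrowed to 1.24-fold (1.22 to 1.27). The receptor's transcript was thus low in the young and the early regenerating liver, by different degrees. Ctsc measured 5.64 CPM in P14, 62.0 in the control, and after PHx 39.6 (24 h), 34.3 (48 h) and 86.8 (96 h). It was 10.99-fold lower in P14 (9.70 to 12.5), but 6.29-fold with 5 CPM added to both levels. At 24 h and 48 h it was 1.57-fold and 1.81-fold lower, under the 2-fold used for a call. The 48 h value was 3.54-fold over 10% to 20% mitochondrial UMIs. At 96 h it was 1.40-fold above the control (1.28 to 1.53).

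Hsd17b13 stood at 352 CPM in P14 and 304 in the control, then at 206, 147 and 531 at 24 h, 48 h and 96 h. This lipid droplet gene was 2.06-fold lower at 48 h (1.97 to 2.16), a value at the edge of a call: on log2(CPM + 1), the scale of all alternatives, it was 1.93-fold with TMM scaling, 1.94-fold over 0% to 30% mitochondrial UMIs and 2.00-fold, just under the threshold, with mitochondrial genes in the total. It was 1.75-fold higher at 96 h (1.68 to 1.82), and the 96 h library was 3.601-fold above the 48 h library. Etnppl measured 40.7 CPM in P14, 111 in the control, and after PHx 50.7 (24 h), 19.9 (48 h) and 84.1 (96 h). It was 2.72-fold lower in P14 (2.55 to 2.90), 2.19-fold lower at 24 h (2.02 to 2.37) and 5.59-fold lower at 48 h (5.00 to 6.24), the largest difference of the 8 genes at that time. The 24 h value was 1.93-fold in cells without mitosis genes, and the 48 h value 8.83-fold over 10% to 20% mitochondrial UMIs.

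Uox stood at 951 CPM in P14 and 1823 in the control, then at 595, 432 and 1722 at 24 h, 48 h and 96 h. Urate oxidase was 1.92-fold lower in P14 (1.89 to 1.95), and 2.05-fold, past the threshold, with at least 3% of UMIs from Alb, Apoa1 and Ttr. It was 3.07-fold lower at 24 h (3.00 to 3.14) and 4.22-fold lower at 48 h (4.12 to 4.33), and at 96 h lay 1.06-fold below the control (1.04 to 1.08). Aldh1b1 measured 116 CPM in P14, 63.3 in the control, and after PHx 43.8 (24 h), 27.2 (48 h) and 228 (96 h). It was 2.33-fold lower at 48 h (2.09 to 2.59) and 3.598-fold higher at 96 h (3.33 to 3.89), an 8.37-fold difference between these libraries. The 48 h value was 1.76-fold without cells that had 3 or more UMIs of non-hepatocyte markers, which left 50 cells, and 4.60-fold over 10% to 20% mitochondrial UMIs, which left 116. In P14 the gene was 1.84-fold above the control (1.71 to 1.97), but 2.22-fold with TMM scaling and 2.55-fold without cells that had 3 or more UMIs of non-hepatocyte markers.

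Set against all genes of at least 5 CPM, 4 of the 8 genes were at least 2-fold lower in P14 (Pigr, Ctsc, Sox9 and Etnppl), where 13.8% of 9011 genes were, and 0 were at least 2-fold higher, where 7.89% were. At 24 h 3 were lower (Pigr, Uox and Etnppl; 7.13% of all genes) and 0 higher (8.51%). At 48 h 5 were lower (Etnppl, Uox, Pigr, Aldh1b1 and Hsd17b13; 7.63%) and 0 higher (8.3%). At 96 h 0 were lower (1.88%) and 1 was higher, Aldh1b1 (4.07%). The median log2 ratio of the 8 genes was -1.18 in P14, -0.59 at 24 h, -1.11 at 48 h and 0.33 at 96 h. Over all genes the medians were -0.26, -0.00086, -0.08 and 0.04. TMM scaling raised the P14 log2 ratios of the 8 genes by 0.25 (Sox9) to 0.29 (Uox). The 4 comparisons share the adult control.

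Cells positive for a gene were counted after each cell had been thinned to 5000 UMIs, so that shares compare at equal depth. Pigr UMIs were found in 95.9% of control hepatocytes (94.4% to 97.1%), in 73.3%, 70.7% and 92.9% of those at 24 h, 48 h and 96 h, and in 6.17% of P14 cells; without thinning the P14 share was 22.3%. Uox was found in 78.0% of cells at 48 h, its lowest share, and in 99.6% of control cells; without thinning 99.6% of cells at 48 h had it. Aldh1b1 went from 17.9% of control cells to 6.26% at 48 h and 43.1% at 96 h (39.5% to 46.6%), and from 34.8% to 23.8% and 65.1% without thinning. Sox9 had the lowest of these shares in the adult control: 6.70% of cells had it (5.18% to 8.51%), against 13.2% (11.3% to 15.2%), 10.7% and 11.3% after PHx in order of time, and 1.80% in P14. Without thinning the Sox9 shares were 21.9% in the control, 37.6%, 45.8% and 35.4% after PHx and 8.64% in P14. Hsd17b13 was found in 70.0% of P14, 56.9% of control and 77.8% of 96 h cells, with 41.3% and 33.5% at 24 h and 48 h.

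Free RNA contributes to such shares. It came to 7.17% of the UMIs of a median control hepatocyte and to less in the other 4 libraries, down to 0.818% at 48 h. Lymphocytes, gated by their own markers and not thinned, are shallower, so that free RNA is a larger part of their UMIs and their shares do not give its part in the hepatocyte shares. In control lymphocytes, at a median of 6168 UMIs, 72.8% of 658 cells had a Pigr UMI and 94.7% a Uox UMI, 14.3% had Etnppl, 19.0% Hsd17b13, 10.9% Aldh1b1 and 1.82% Sox9. The 917 Pigr UMIs of these lymphocytes compare with 849 expected from empty droplets, and their 77 Aldh1b1 UMIs with 71.9. At 48 h, at a median of 5943 UMIs, the shares were 9.19% for Pigr, 19.2% for Uox, 0.641% for Etnppl, 1.92% for Hsd17b13, 2.78% for Aldh1b1 and 0.641% for Sox9, and at 96 h that of Aldh1b1 was 13.8%. All of these were under the thinned hepatocyte shares of the same library. Ctsc has no such background here, since lymphocytes hold more of its UMIs than free RNA accounts for, 244 against 4.62 at 48 h. In hepatocytes, free RNA at the level of empty droplets made up between 5.03% (Hsd17b13) and 13.2% (Ctsc) of these genes' UMIs in the control and at most 4.71% (Uox at 96 h) in any other library.

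To place cells along the lobule, hepatocytes with at least 10 UMIs of Cyp2f2 and Cyp2e1 together were ranked within each library by the share of Cyp2f2, a portal cytochrome P450, over both, Cyp2e1 being the central one. Cells of equal share were ordered by their UMIs of both genes together, those with more being placed more centrally. The ranked cells were split into 3 bins of equal size, called central, middle and portal below. These are ranges of a score and not cell types. In the portal bin 7 of the 8 genes were at least 1.5-fold higher than in the central bin in each of the first 4 libraries (P14, control, 24 h and 48 h), and 8 of 8 at 96 h. Of all genes, 3.27%, 3.33%, 3.85%, 4.28% and 4.21% were higher in these libraries. Uox was the one under that fold. The 8 genes were listed as portal genes with earlier results of these data known. These counts and the correlations below are thus no independent check of their placement. None of the 8 was at least 1.5-fold lower, against 1.51%, 5.8%, 6.61%, 2.79% and 9.83% of all genes. The median log2 ratio of the 8 genes was 1.25, 2.31, 3.34, 2.97 and 2.12, with that of all genes between -0.14 and 0.04. Levels increased from the central to the middle to the portal bin for all 8 genes in all libraries, except Uox in P14 (925, 1006 and 947 CPM).

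**Figure D2:**
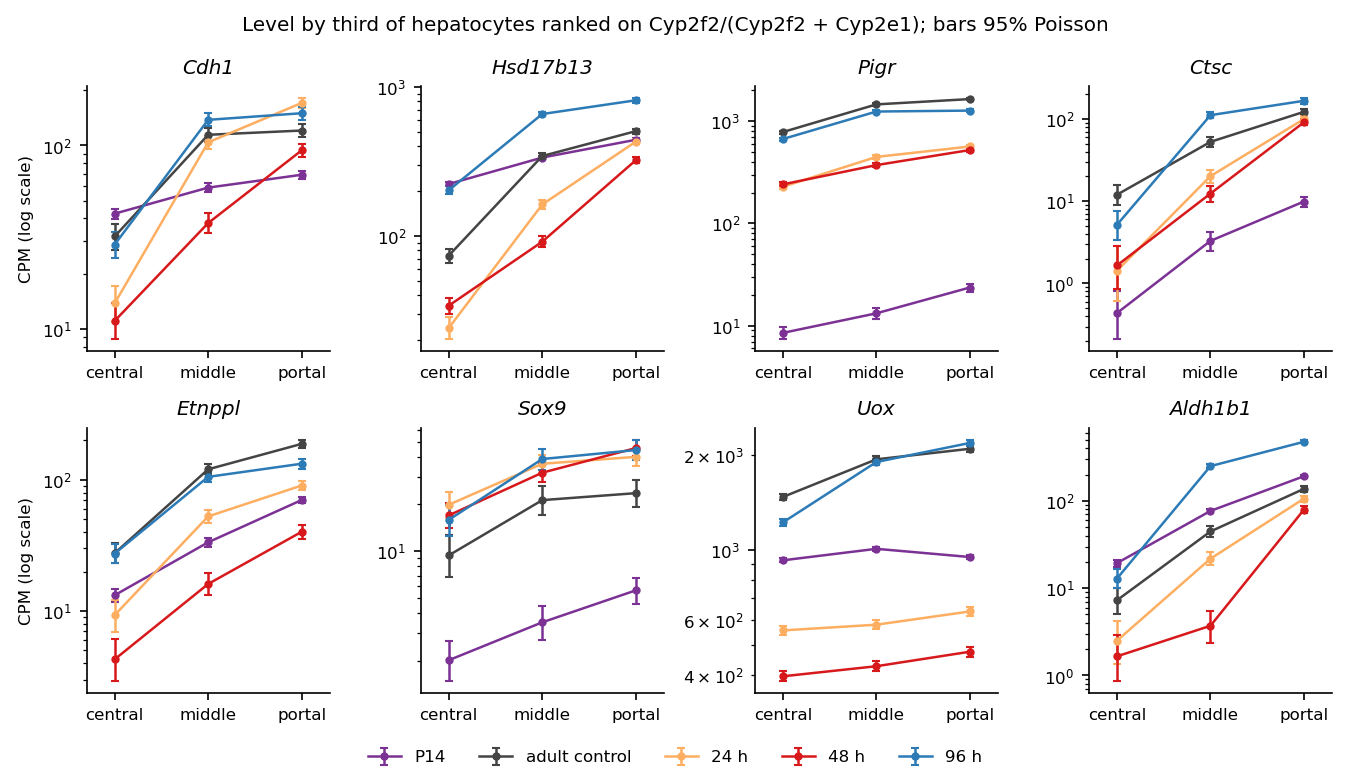
Level of each gene in the central, middle and portal bins of hepatocytes, in CPM on a log axis, with 1 line per library and 95% Poisson error bars. Lines of Ctsc, Aldh1b1 and Hsd17b13 are steepest at 24 h and 48 h as drawn, whereas Uox is nearly flat in P14, at 24 h and at 48 h. For Ctsc and Aldh1b1 the intervals of these slopes overlap those at 96 h, and the order for Aldh1b1 changes when free RNA is subtracted.

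Cyp2f2 itself differed greatly in level between libraries, and this sets how sharply bins could be drawn. It stood at 31.3 CPM in P14 and 1882 in the control, and at 500, 274 and 895 after PHx. All central cells of P14 and of 48 h, and 91.1% of those at 24 h, had no Cyp2f2 UMI. Of the middle cells, 78.1% in P14 and 31.5% at 48 h had none either. Among such cells of P14 and 48 h, the split between central and middle followed the Cyp2e1 count, which also depends on depth. Median depth in P14 was 42787 UMIs in the central and 35188 in the middle bin. Within 0.05 of a boundary of the score lay 1730 cells in P14, 247 in the control, and 414, 372 and 351 after PHx. Cells left out for too few UMIs of both genes numbered 118, 2, 226, 53 and 30. The difference in slope between libraries was not tested, and the part that the Cyp2f2 level plays in it was not tested.

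Ctsc and Aldh1b1 had the steepest slopes. Ctsc went from 12.0 CPM in the central bin to 52.5 and 122 in the control, a 10.2-fold difference (7.70 to 13.6). At 24 h it went from 1.43 to 20.1 and 99.4, a 69.4-fold difference (35.0 to 162). That value rests on 8 central UMIs, where free RNA predicts 5.80. The difference was 54.9-fold at 48 h (31.2 to 107), 32.1-fold at 96 h (21.7 to 49.5) and 22.7-fold in P14 (12.1 to 48.0). The P14 value rests on 10 central UMIs and was 7.59-fold on log2(CPM + 1), under the 9.45-fold of the control on that scale. At 96 h it was, on log2(CPM + 1), 27.0-fold in all binned cells but 13.3-fold over 10% to 20% mitochondrial UMIs and 13.7-fold with other landmark genes. Immune cells use this protease too. At 24 h the 9 markers of monocytes, macrophages and dendritic cells summed to 11.1 CPM in the central and 8.28 in the portal bin, those of lymphocytes to 3.58 and 5.07, and those of neutrophils to 104 and 78.6. At 48 h the same lists summed to 16.98 and 17.8, 9.39 and 12.4, and 181 and 192 CPM, and in the control to 21.2 and 11.01, 16.5 and 10.3, and 13.1 and 8.36 CPM. Aldh1b1 went from 7.28 to 44.7 and 138 CPM in the control, an 18.9-fold difference (13.4 to 27.6) whose 34 central UMIs are what free RNA predicts, and from 1.66 to 3.71 and 79.6 at 48 h. At 48 h 93.4% of its binned UMIs were in the portal bin, against 74.3% in the control and 62.9% at 96 h. Subtracting free RNA widened these slopes most in the control, on log2(CPM + 1) from 16.8-fold to 134-fold for Aldh1b1 and from 9.45-fold to 22.3-fold for Ctsc. At 24 h they became 53.0-fold and 73.1-fold, and at 96 h that of Aldh1b1 went from 34.4-fold to 69.1-fold. The order of libraries for Aldh1b1 thus rests on that step. In P14 and at 24 h the portal bin held 67.7% and 81.2% of the binned Aldh1b1 UMIs. The mitochondrial dehydrogenase was thus mostly in the portal bin in every library. On log2(CPM + 1) its slope was 9.47-fold in P14, 16.8-fold in the control, and 30.7-fold, 30.3-fold and 34.4-fold after PHx.

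Hsd17b13 went from 73.9 to 344 and 504 CPM across the control bins, a 6.83-fold difference (6.10 to 7.67). The difference was 17.8-fold at 24 h (14.9 to 21.3), 9.44-fold at 48 h, 4.01-fold at 96 h and 1.98-fold in P14 (1.91 to 2.05). Cdh1 was also steepest at 24 h, with 12.4-fold (9.81 to 15.8) against 3.78-fold in the control (3.15 to 4.56), and had 8.51-fold at 48 h, 5.203-fold at 96 h and 1.63-fold in P14. In P14 Uox alone was more even than E-cadherin across the bins, and the Cdh1 value there fell just under 1.5-fold without cells that had 3 or more UMIs of non-hepatocyte markers, which left 1027 cells. Etnppl had slopes between 4.84-fold at 96 h and 9.73-fold at 24 h, with 6.82-fold in the control and 5.32-fold in P14. At 24 h it was 15.6-fold over 10% to 20% mitochondrial UMIs, and at 48 h 2.35-fold in the 50 cells without 3 or more UMIs of non-hepatocyte markers.

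Pigr and Sox9 had slopes of 1.90-fold to 2.80-fold in all 5 libraries, in P14 above those of Hsd17b13 and Cdh1 and in the 4 adult libraries below them. Pigr differed by 2.77-fold in P14 and 2.10-fold in the control (2.02 to 2.18), and by 2.47-fold, 2.16-fold and 1.90-fold after PHx. Sox9 differed by 2.80-fold, 2.50-fold (1.74 to 3.64), 2.02-fold, 2.70-fold and 2.80-fold in the same libraries. The 9 duct markers, led by Spp1, also rose towards the portal bin, from 16.9 to 47.3 CPM in the control, 7.16 to 135 at 24 h and 11.3 to 332 at 96 h. Their part in the Sox9 slope was not tested. Krt19 was at 0 UMIs in the hepatocytes of all 4 adult libraries. Uox, the flattest gene, differed by 1.02-fold in P14 (1.00 to 1.04), 1.42-fold in the control (1.38 to 1.47), and 1.15-fold, 1.197-fold and 1.79-fold (1.73 to 1.85) after PHx.

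The slopes of the control depended on the hepatocyte definition. With at least 3% rather than 1% of UMIs from Alb, Apoa1 and Ttr, 410 of the 925 control cells remained, and 4 rather than 7 of the 8 genes were at least 1.5-fold higher in the portal bin. On the log2(CPM + 1) ratio, Cdh1 then differed by 1.23-fold, Pigr by 1.23-fold and Sox9 by 1.30-fold in the control. Hsd17b13 went from 6.75-fold to 1.66-fold, Etnppl from 6.61-fold to 1.91-fold, Ctsc from 9.45-fold to 3.57-fold and Aldh1b1 from 16.8-fold to 5.06-fold. The 24 h library, with 144 cells left, also had smaller slopes: 1.38-fold for Sox9, 1.63-fold for Pigr, 2.25-fold for Cdh1, 3.05-fold for Etnppl, 4.58-fold for Hsd17b13, 10.4-fold for Aldh1b1 and 14.9-fold for Ctsc. Over 10% to 20% mitochondrial UMIs, which left 87 control cells, control slopes were larger instead: 1.87-fold for Uox, 3.78-fold for Pigr, 5.22-fold for Sox9, 9.12-fold for Cdh1, 11.1-fold for Hsd17b13 and 54.1-fold for Aldh1b1, and that of Sox9 at 96 h was 7.24-fold. Over the same range Aldh1b1 at 48 h went from 30.3-fold to 19.3-fold, and it was 18.7-fold, and Cdh1 12.2-fold, without cells that had 3 or more UMIs of non-hepatocyte markers. The median share of these 3 plasma protein genes was 1.90% in the central and 3.44% in the portal bin of the control. When cells were ranked by other landmarks instead, the 7 portal genes Hal, Sds, Gls2, Ass1, Asl, Arg1 and Cps1 against the 6 central genes Glul, Cyp1a2, Oat, Rgn, Slc1a2 and Lect2, no count of portal genes moved by over 1.5 times, but single slopes did: at 24 h Ctsc differed by 19.3-fold, Aldh1b1 by 20.1-fold and Cdh1 by 7.46-fold, and in P14 Aldh1b1 by 18.1-fold and Sox9 by 3.74-fold. With 5 bins in place of 3, whose outer bins lie further apart, 15 slopes moved by over 1.5 times or passed the threshold, all upwards. In the control Uox passed it at 1.56-fold, Sox9 differed by 4.18-fold, Cdh1 by 8.12-fold, Etnppl by 13.5-fold, Hsd17b13 by 15.8-fold and Ctsc by 15.9-fold. In P14 Pigr differed by 4.04-fold, Ctsc by 11.4-fold and Aldh1b1 by 18.2-fold. At 48 h the values were 12.5-fold for Etnppl, 55.7-fold for Ctsc and 60.4-fold for Aldh1b1, and at 96 h 8.02-fold for Etnppl, 8.26-fold for Cdh1 and 52.2-fold for Ctsc.

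The same bin was then compared between libraries. In the portal bin at 24 h, Ctsc was 1.22-fold below the control (1.09 to 1.38), Hsd17b13 1.18-fold below and Cdh1 1.41-fold above it (1.27 to 1.57). In the central bin Hsd17b13 and Cdh1 were 3.06-fold (2.50 to 3.76) and 2.31-fold (1.75 to 3.09) below the control. Ctsc went there from 56 UMIs in the control to 8 at 24 h, of which free RNA predicts 36.2 and 5.80. The 24 h count is near the prediction, so no fold is given for Ctsc there. The difference between the bins was not tested. Uox and Pigr were lower in both bins: at 24 h Uox was 3.28-fold lower in the portal and 2.65-fold lower in the central bin, and Pigr 2.91-fold and 3.42-fold lower. At 48 h Etnppl was 4.68-fold lower in the portal bin (4.07 to 5.40) and 6.45-fold lower in the central bin (4.33 to 9.88). Of the central Etnppl UMIs, free RNA predicts 43.7 of 129 in the control and 1.06 of 31 at 48 h. It was not taken off in these folds, so they do not show a larger difference in the central bin. Aldh1b1 at 96 h was 3.46-fold higher in the portal bin (3.16 to 3.796) and 5.61-fold higher in the middle bin (4.79 to 6.60). In the central bin it had 34 UMIs in the control, where free RNA predicts 33.7, and 65 at 96 h, where it predicts 35.3, so no fold is given there. Sox9 was higher than in the control in all 3 bins at 24 h, by 1.71-fold, 1.71-fold and 2.11-fold from portal to central. Since each library was cut into its own bins, equal bins need not be equal places in the lobule.

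The correlation over single cells with Cyp2f2 and with Cyp2e1 needs no bins. Spearman's rho was above 0 with Cyp2f2 and below 0 with Cyp2e1 for 7 of the 8 genes in P14, where 51.5% of genes of at least 20 CPM had these signs. It was so for 8 of 8 in the other 4 libraries, against 28.3% of genes in the control and 35.3%, 43.5% and 18.5% after PHx. The signs alone are common among genes. In size, the median of the 8 genes with Cyp2f2 was 0.18 in P14 and 0.42, 0.52, 0.52 and 0.53 in the 4 adult libraries, with medians over all genes between -0.06 and 0.01. Cells of a library share its depth and free RNA, and rho is a description of these cells.

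**Figure D3:**
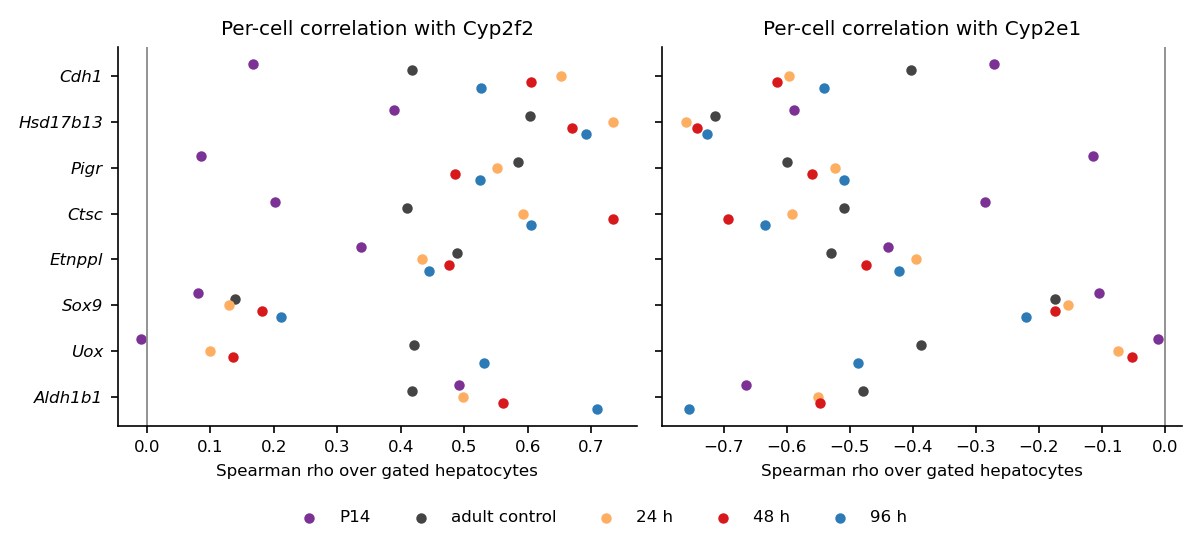
Spearman's rho over single hepatocytes of each gene with Cyp2f2 (left) and Cyp2e1 (right), 1 point per library. With Cyp2f2, Hsd17b13 lies at 0.60 to 0.73 in the adult libraries and Sox9 between 0.08 and 0.21. Uox lies at -0.01, 0.10 and 0.14 with Cyp2f2 in P14, at 24 h and at 48 h, but at 0.42 and 0.53 in the control and at 96 h.

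Hsd17b13 had a rho with Cyp2f2 of 0.39 in P14, 0.60 in the control and 0.73, 0.67 and 0.69 after PHx, and with Cyp2e1 of -0.59, -0.71, -0.76, -0.74 and -0.73. In P14 Aldh1b1 was the gene most opposed to Cyp2e1, at -0.67, where it was 0.49 with Cyp2f2. Uox differed between libraries. Its rho with Cyp2f2 was -0.01 in P14, 0.42 in the control and 0.10, 0.14 and 0.53 after PHx, and with the UMI count of the cell -0.18, -0.10, -0.14, -0.31 and -0.31. Sox9 stayed between 0.08 and 0.21 with Cyp2f2, a weak relation in sparse counts. Between pairs of the 8 genes, the highest median rho over the 5 libraries was 0.53, for Hsd17b13 with Aldh1b1, followed by 0.52 for Hsd17b13 with Ctsc. Uox with Cdh1 had a median of 0.07.

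Many hepatocytes of the operated livers were dividing, and the genes were compared between cycling cells (at least 3 of 25 mitosis genes after thinning) and cells with none of these genes in the same library. There were 259 cycling cells of 2106 in P14, and 177 of 1170, 302 of 719 and 81 of 771 after PHx. The adult control had 6, too few to compare. At 96 h all 8 genes were at least 1.5-fold lower in cycling cells, where 6.08% of all genes were. At 24 h 5 were lower (Aldh1b1, Uox, Sox9, Ctsc and Etnppl; 2.08% of all genes, whole libraries), at 48 h 2 (Uox and Etnppl; 2.39%), and in P14 0 (0.898%). At least 1.5-fold higher were Sox9 in P14 (18.6% of all genes) and Hsd17b13 at 48 h (18.3%), and 0 of 8 at 24 h (15.9%) and 96 h (21.5%). Cycling cells were deeper at 24 h, 48 h and 96 h, with medians of 24850, 41980 and 28596 UMIs against 19121, 32189 and 20686.

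**Figure D4:**
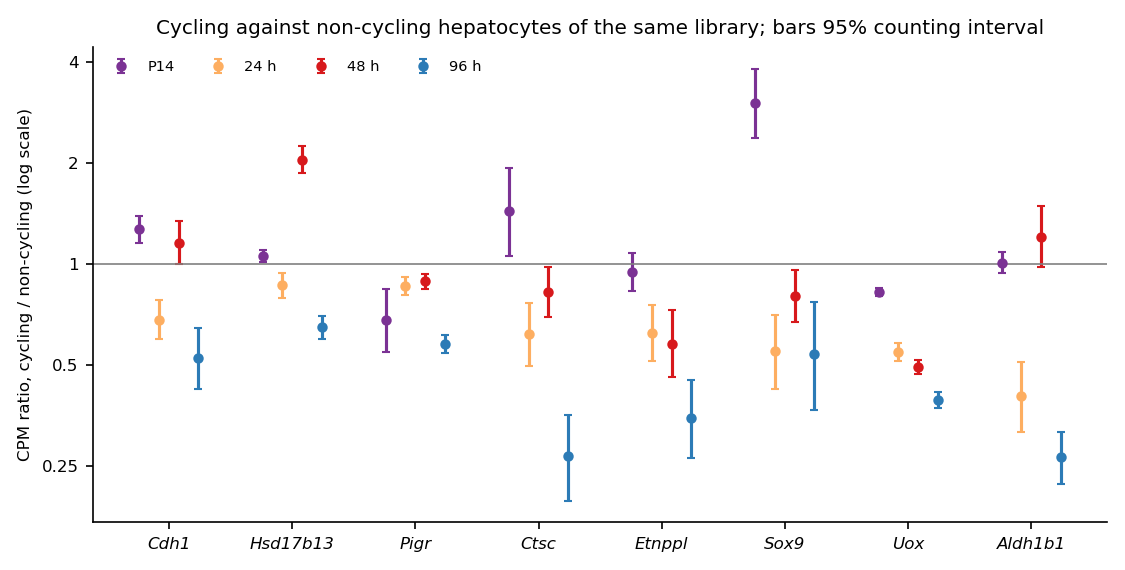
Ratio of CPM in cycling over non-cycling hepatocytes of the same library, on a log axis, with 95% counting intervals. All 8 points of 96 h lie below 1, Uox lies below 1 in all 4 libraries, and Sox9 in P14 and Hsd17b13 at 48 h lie above 2.

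Uox was lower in cycling cells in every library compared. It stood at 801 against 969 CPM in P14, a ratio of 0.827 (0.805 to 0.849), at 367 against 670.3 at 24 h (ratio 0.548, 0.516 to 0.581), at 289 against 584 at 48 h (0.495, 0.472 to 0.519) and at 781 against 1984 at 96 h (0.394, 0.372 to 0.416). The difference was there within bins too: at 48 h the ratio was 0.529 in the central, 0.495 in the middle and 0.456 in the portal bin, and at 24 h 0.544, 0.613 and 0.491. Within the bins at 24 h, Ctsc had ratios of 1.201 (0.772 to 1.83) in the middle and 0.871 (0.661 to 1.13) in the portal bin, and Aldh1b1 0.967 and 0.477 (0.338 to 0.656). Etnppl had 1.504, 0.907 and 0.606 (0.434 to 0.827) from central to portal, and Sox9 0.712, 0.598 (0.395 to 0.883) and 0.485 (0.266 to 0.820). In the portal bin the intervals of Aldh1b1, Sox9 and Uox (0.430 to 0.559) overlapped. Etnppl, the phosphoethanolamine phospho-lyase, had ratios over all cells of 0.626 at 24 h (0.515 to 0.755), 0.580 at 48 h (0.460 to 0.730) and 0.349 at 96 h (0.265 to 0.452). Its 48 h ratio turned to 1.55 over 10% to 20% mitochondrial UMIs, where 116 cells were left.

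Cycling cells were not spread evenly over the bins at 96 h, when they made up 20.6% of central (15.8% to 26.2%), 6.07% of middle and 5.26% of portal cells (2.83% to 8.83%). Ctsc and Aldh1b1, the steepest genes, had the lowest ratios in cycling cells of that library. Hsd17b13 had the highest of the 8 genes, 0.648, and Uox, the flattest gene, had 0.394. The part of the cells' placement in these ratios was not tested. Ctsc stood at 28.3 against 106 CPM (ratio 0.268, 0.198 to 0.356) and Aldh1b1 at 74.7 against 281 (0.266, 0.222 to 0.317). After thinning to 5000 UMIs the Aldh1b1 ratio was 0.158 on log2(CPM + 1). Within the central bin at 96 h, Aldh1b1 had a ratio of 0.585 with an interval that includes 1 (0.272 to 1.16), Hsd17b13 one of 1.26 (1.08 to 1.46) and Pigr one of 0.623 (0.566 to 0.684). The middle and portal bins had under 20 cycling cells and were not compared. Over 0% to 30% mitochondrial UMIs, 4 rather than 8 genes were lower at 96 h, with Cdh1, Hsd17b13, Pigr and Sox9 between 1.13-fold and 1.34-fold lower. At 24 h, over 10% to 20% mitochondrial UMIs, Etnppl, Sox9 and Ctsc were 1.25-fold, 1.11-fold and 1.37-fold lower, under the threshold. Cyp2f2, which ranks the cells, was itself lower in cycling cells: 366 against 1064 CPM at 96 h, a ratio of 0.344 (0.318 to 0.373), with ratios of 0.660 at 24 h and 0.703 at 48 h. Cyp2e1 had ratios of 1.36 at 96 h, 1.05 at 24 h and 0.782 at 48 h. The P14 ratios were 0.655 (0.643 to 0.667) for Cyp2e1 and 0.916 (0.792 to 1.06) for Cyp2f2. The bins of cycling cells thus rest on genes that differ with cycling, and the part of this in the shares was not tested. The cycling shares at 24 h from central to portal were 19.0%, 17.8% and 11.1%, and at 48 h 38.7%, 45.9% and 38.3%.

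Hsd17b13 was the gene that stood out at 48 h. It stood at 168 CPM in cycling and 82.3 in non-cycling cells, a ratio of 2.05 (1.86 to 2.25), and the ratio was 3.91 (2.78 to 5.62) in the central, 3.11 (2.44 to 4.02) in the middle and 1.62 (1.45 to 1.81) in the portal bin. In cells without mitosis genes alone, its level at 48 h was 3.67-fold below the control on the log2(CPM + 1) ratio. At 24 h the ratio over all cells was 0.864 (0.795 to 0.939). Within the bins at 24 h it was 1.46 (0.973 to 2.18), 1.47 (1.27 to 1.69) and 1.03 (0.909 to 1.15) from central to portal. In P14 it was 1.06 (1.02 to 1.10) over all cells, and 1.01, 0.918 and 1.03 in the bins. Sox9 in P14 stood at 14.1 CPM in cycling and 4.68 in non-cycling cells, a ratio of 3.02 (2.37 to 3.81). This ratio rested on the 9 cells with Krt19, Krt7 or Epcam, 2 of them cycling: without them the log2 ratio was -0.33, and the single highest P14 cell held 81 Sox9 UMIs.

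Outside hepatocytes, several of the genes had more UMIs in other cell classes than free RNA predicts. That prediction can itself be too low: P14 lymphocytes had 256 Cyp2e1 UMIs against 80.0 predicted. Of similar size were the excesses of Hsd17b13 in P14 lymphocytes (29 UMIs against 8.06) and of Uox in P14 lymphocytes (117 against 49.6), in neutrophils at 48 h (80 against 27.9) and in endothelial cells at 96 h (158 against 76.4). Among the larger excesses were those of Ctsc in 3 classes, and of Cdh1 and Aldh1b1 in the class gated by monocyte, macrophage or dendritic markers. Cells of that class had Ctsc at 462 CPM in P14 (25 cells) and 452 in the control (61 cells). After PHx they had it at 526, 426 and 343 CPM (80, 134 and 64 cells). These levels lay above those of hepatocytes in every library. Lymphocytes had Ctsc at 63.6, 82.7, 72.8, 82.3 and 66.9 CPM, and neutrophils had it at 102 CPM at 48 h (88.2 to 117), where free RNA held 34.9 CPM. In hepatocytes the summed monocyte, macrophage and dendritic markers lay between 8.49 and 18.7 CPM, and the neutrophil markers between 11.04 and 191 CPM, highest at 48 h, where free RNA held 1579 CPM of them. The part of other cells' RNA in the hepatocyte level of Ctsc was not tested. Cdh1 in the monocyte class ranged from 9.87 to 56.1 CPM. At 48 h it was at 38.7 CPM (29.6 to 49.8) there and at 46.9 CPM in hepatocytes. Its UMIs there numbered 61 at 48 h, against 0.714 expected from free RNA. They were 33 against 5.23 in the control, 16 against 1.33 at 24 h and 22 against 1.46 at 96 h. Aldh1b1 ranged from 19.7 to 48.0 CPM in this class. At 48 h it was at 26.7 CPM (19.2 to 36.1), close to the 27.2 CPM of hepatocytes, with 42 UMIs against 1.44 expected. It had 28 against 6.67 in the control, 23 against 2.09 at 24 h and 29 against 9.15 at 96 h. That last excess, 3.17 times the prediction, was of the size of the 3.20 of Cyp2e1 in P14 lymphocytes. A gate on duct markers found no cell in P14 and 1 in each of the other libraries, so levels in bile duct cells are not described.

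Sox9-positive hepatocytes can be described further, since Sox9 is a duct gene as well. At 96 h the 273 hepatocytes with a Sox9 UMI had Spp1, a secreted phosphoprotein of duct cells, at 346 CPM, against 43.1 CPM in the 498 without. At 24 h the values were 111 and 35.4 CPM, and in the control 28.1 and 14.1 CPM. Of all Spp1 UMIs, the 5 highest cells held 37.7% at 96 h and 47.1% at 24 h. The positive cells were also deeper, with medians of 22914 against 21203 UMIs at 96 h and 22652 against 17959 at 24 h. Alb made up 5.98% of their UMIs and 5.83% of the others' at 96 h. In the portal bin were 40.3% of Sox9-positive and 27.5% of Sox9-negative cells at 96 h, and 32.5% and 23.4% at 24 h.

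The partners of the 8 genes were read from lists fixed with earlier results of these data known. Of 18 other portal genes, 11 of 18 were at least 1.5-fold higher in the portal bin in the control, at 24 h and at 48 h, 12 of 18 at 96 h and 10 of 17 tested in P14, and 0 were lower. Their median log2 ratios to the control were 0.22 in P14, -0.41 at 24 h, -0.89 at 48 h and 0.19 at 96 h, with 3, 5, 7 and 2 of 18 genes at least 2-fold lower (13.8%, 7.13%, 7.63% and 1.88% of all genes) and 5, 1, 1 and 1 higher (7.89%, 8.51%, 8.3% and 4.07%). Of 17 central genes tested, 15 to 17 were lower in the portal bin in each library. The list includes Cyp2e1, which ranks the cells, so the count is no independent check of the ranking. Pck1, an enzyme of gluconeogenesis, had portal log2 ratios of 0.65 in P14, 0.57 in the control, and 0.74, 0.55 and 1.64 after PHx. In the same order, those of Mup20 were -0.24, 1.02, 1.35, 1.12 and 1.80, but at 0.557 CPM in P14 the first lies at the floor and describes no slope. Those of Trf were -0.21, 0.49, 0.30, 0.16 and 0.58, and those of Rbp4 -0.10, 0.04, -0.31, -0.21 and -0.28. Of 10 adherens junction genes, 0 to 1 were portal in a library, near the 3.27% to 4.28% of all genes. Ctnnb1, which encodes beta-catenin, had portal log2 ratios between -0.06 and 0.26. Cdh2, the other cadherin of hepatocytes, had portal log2 ratios between -0.99 and -0.36.

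Enzyme families were read in the same way, against 3.27% to 4.28% of all genes higher and 1.51% to 9.83% lower in the portal bin. Of 11 lysosomal genes tested, 0 were at least 1.5-fold higher or lower in the portal bin in any library, and Ctsb and Ctsl had portal log2 ratios between 0.12 and 0.52. Of 12 to 13 aldehyde dehydrogenases tested, at most 1 was portal, and 0 were central in P14, 3 in the control (5.8% of all genes), 2 at 24 h (6.61%), 2 at 48 h (2.79%) and 3 at 96 h (9.83%), among them Aldh1a1 in the adult libraries, with portal log2 ratios between -1.32 and -1.12. Of 11 genes of ethanolamine and phospholipid metabolism, at most 1 was portal in a library, and 3 were central at 96 h and at most 1 in the others. Pcyt2, which makes CDP-ethanolamine, had portal log2 ratios between -0.06 and 0.07. Of 8 lipid droplet genes tested, at most 1 was portal; Plin2, the coat protein of the droplets, was at 286 CPM in the control and 222 to 275 CPM after PHx. Hsd17b11, a related lipid droplet enzyme, had log2 ratios of -1.46 at 24 h and -1.11 at 48 h.

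Of 9 other genes of purine breakdown and salvage tested, 0 were at least 2-fold lower after PHx, close to the 7.13%, 7.63% and 1.88% of all genes, with median log2 ratios of 0.50 at 24 h, 0.23 at 48 h and 0.34 at 96 h. Urah, which acts on the product of urate oxidase, stood at 499 CPM in the control and 440, 509 and 480 CPM after PHx, and Pnp, the purine nucleoside phosphorylase, had a log2 ratio of 1.34 at 48 h. Of 4 genes for immunoglobulin and its transport tested, 3 were at least 2-fold lower in P14 (13.8% of all genes), 3 at 24 h (7.13%), 0 at 48 h (7.63%) and 2 at 96 h (1.88%). Igha and Jchain, which encode parts of IgA itself, were among the lower genes in P14, at 24 h and at 96 h. At 96 h they were the ones (-2.36 and -1.96), and at 48 h both lay above the control (0.81 and 0.65). They lay between 0 and 26.7 CPM in hepatocytes, and the part of other cells' RNA in these values was not tested. B2m had a log2 ratio of -1.23 in P14. Fcgrt, which encodes the receptor for IgG, had log2 ratios of -1.16, -0.85 and -0.45 after PHx. In P14, where Pigr was 74.9-fold lower, Fcgrt was at 0.14. Of the ductal programme genes tested, 2 of 10 were at least 2-fold higher in P14 (7.89% of all genes), 4 of 9 at 24 h (8.51%), 2 of 9 at 48 h (8.3%) and 4 of 9 at 96 h (4.07%). Krt8 and Krt18, keratins of hepatocytes and duct cells, had log2 ratios of 2.24 and 2.13 at 24 h, and Hes1, a Notch target, 1.83 at 24 h and 2.301 at 96 h. Onecut2 of the same list lay below the control throughout, at -0.59 in P14 and -0.10, -0.32 and -0.50 after PHx.

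The genes whose 4 log2 ratios to the control lay closest to those of each member were found by Euclidean distance among 6048 genes of at least 20 CPM in a library. For Pigr these were Mug1, Nox4 and Ces3a, at distances of 0.35, 0.55 and 0.80, for Uox Clec2d, Pklr and Rnf152 (0.37, 0.38 and 0.56), and for Sox9 Gnat1, Ildr2 and Parp3 (0.30, 0.31 and 0.43). Cdh1 was nearest to Bhlhe40, Car14 and Cth (0.31, 0.33 and 0.41), Hsd17b13 to Aspa, Bche and Fam213a (0.24, 0.41 and 0.46), Ctsc to Apol9a, Me1 and Gpt2 (0.51, 0.56 and 0.58) and Etnppl to Fgfr2, Mmp15 and Clec2d (0.44, 0.54 and 0.63). Aldh1b1 had no close neighbour, with Sds at 1.11, Enpp2 at 1.199 and Adora1 at 1.21. Over single cells, 4 of the 8 genes had a UMI in at least 30% of cells of every library and were set against 3822 genes. The highest mean rho over the 5 libraries was with Cyp2f2 for Hsd17b13 (0.62) and Cdh1 (0.47) and with Hal, histidine ammonia-lyase, for Etnppl (0.47). Uox went instead with Pck1 (0.40), Bhmt (0.39) and Mat1a (0.39), of which the last 2 are enzymes of methionine metabolism.

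How the 8 genes combined in single hepatocytes was counted at 5000 UMIs per cell. The median cell held UMIs of 2 of them in P14, 3 in the control and 3, 2 and 4 after PHx. Cells with at least 6 of the 8 made up 0.712% in P14, 8.54% in the control, and 4.62%, 1.67% and 19.3% after PHx, so the 96 h library had the most such cells. Between bins the median was 2 in central and 4 in portal cells of the control, and 3 and 5 at 96 h. The 10% of cells with the most Aldh1b1 held 61.4% of its UMIs in the control, 77.4% at 48 h and 42.2% at 96 h, whereas the same share of cells held between 20.2% and 25.4% of the Uox UMIs in any library.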

How the data were processed

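Single-cell RNA of liver cells was measured in 5 libraries, 1 per group. The authors deposited, per library, a matrix of raw UMI counts per gene and barcode; per the file headers it was written by software version 3.0.2. Per the submitters' processing notes, bcl2fastq 2.17.1.14, Cell Ranger, Seurat 3.1 and the mm10 build were used; parameters and the gene annotation are not given in the sources used here. Counts of gated hepatocytes were summed, mitochondrial genes left out of the total, and ratios taken as log2((CPM + 1)/(CPM + 1)), with a call at 2-fold between libraries (genes of at least 5 CPM in either) or 1.5-fold within a library. CPM have Poisson, shares Clopper-Pearson and ratios conditional binomial intervals (95%, counting error only). Intervals of UMIs rest on molecules counted. A printed fold is the ratio of CPM, without the added 1, unless stated. Thinning drew 5000 UMIs per cell without replacement (numpy 2.4.6), and no hepatocyte was shallower. Free RNA came from barcodes of rank 20001 to 60000. No doublet caller was run; cells with 3 or more UMIs of non-hepatocyte markers were left out as an alternative. Other classes needed at least 1000 UMIs, under 10% mitochondrial UMIs and 5 UMIs from at least 3 markers of 1 list. TMM factors came from edgeR 4.0.16. Code was tested on simulated data. Named are the 8 genes, Cyp2f2 and Cyp2e1, up to 4 genes of each list by mean CPM, and the 3 nearest genes; Spp1, Krt19, Krt7 and Epcam were named after their values were seen. Members and lists were chosen with earlier results of these data known. Alternatives changed the gate, scaling, pseudocount, filter, thinning, free RNA, bins, landmarks and cycling rule.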

Additional observations from a re-analysis of the deposited data

Results flagged for a closer look

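2 of the 8 genes differed in opposite directions between cycling and non-cycling hepatocytes of 2 libraries, each by at least 1.5-fold with a counting interval that leaves out 1. Such intervals do not hold the spread between cells. Hsd17b13 was 2.05-fold higher in cycling cells at 48 h and had a ratio of 0.648 (0.597 to 0.703) at 96 h, a difference of log2 ratios of 1.65. At 96 h it was 1.13-fold lower over 0% to 30% mitochondrial UMIs, and within the central bin, the one bin compared there, its ratio was 1.26 (1.08 to 1.46), on the same side as at 48 h. Sox9 was 3.02-fold higher in cycling cells of P14 and had ratios of 0.551 (0.426 to 0.705) at 24 h and 0.541 (0.368 to 0.771) at 96 h, differences of 2.24 and 2.27. Sox9 was 1.11-fold lower at 24 h over 10% to 20% mitochondrial UMIs, and at 96 h 1.29-fold lower over 0% to 30% and 1.44-fold lower with at least 5 mitosis genes, all under 1.5-fold. With 1 library per group, none of these differences between libraries was tested. Without the 9 P14 cells with Krt19, Krt7 or Epcam the Sox9 ratio in P14 was no longer above 1 (log2 -0.33).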

How the results depend on the processing

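No paired analysis was possible because each group was 1 library. Counts of members past a fold or sign stayed within 1.5 times in 236 of 252 recomputations. No called ratio between libraries or bins changed sign (0 of 169 and 0 of 360 recomputations), and 163 and 355 stayed past the fold; of 120 for called cycling ratios, 106 stayed past the fold and 3 changed sign. Members at least 2-fold higher numbered 2 at 96 h over 10% to 20% mitochondrial UMIs (Aldh1b1 and Sox9), 1 in P14 with TMM scaling and 1 in P14 without cells of 3 or more non-hepatocyte marker UMIs (Aldh1b1 in both), and 1 at 24 h (Sox9) in cells without mitosis genes. With at least 3% of Alb, Apoa1 and Ttr, 4 members were portal in the control. Of the cycling counts, members lower numbered 1 in P14 and 2 at 24 h over 10% to 20% mitochondrial UMIs, 4 at 96 h over 0% to 30%, 1 in P14 without cells of non-hepatocyte marker UMIs, and 3 at 24 h after thinning. Members higher in cycling cells numbered 2 at 48 h over 10% to 20% mitochondrial UMIs and after thinning, 2 in P14 after thinning and with at least 5 mitosis genes, and 0 in P14 without cells of non-hepatocyte markers or without those of Krt19, Krt7 or Epcam, an alternative chosen after seeing the data. Of all recomputed single values, 29 had the other sign. Of these, 5 had been past the fold or 0.1 in rho: Etnppl at 48 h over 10% to 20% mitochondrial UMIs (cycling log2 ratio 0.63), Sox9 in P14 without those 2 sets of cells (-0.11 and -0.33), and the correlation of Sox9 with Cyp2e1 over 0% to 30%, 0.00136 at 24 h and 0.022 at 48 h. The other 24 were below these sizes. Among them, the Ctsc cycling ratio at 48 h turned from 0.83-fold to 1.90-fold after thinning, Cdh1 at 96 h from a log2 ratio of 0.18 to -0.27 over 0% to 30% mitochondrial UMIs and -0.08 with the 3% share, Uox at 96 h from -0.08 to 0.12 in cells without mitosis genes, and the Uox slopes in P14 and at 48 h to -0.09 and -0.05 over 10% to 20%. The causes of these moves were not tested. The range of 10% to 20% left 87 control cells and 53 at 96 h, and leaving out cells with 3 or more marker UMIs left 50 at 48 h. Depth limits the central bins most, where Ctsc and Aldh1b1 rest on 8 to 14 UMIs at 24 h and 12 at 48 h, and Ctsc on 10 in P14. With 1 library per group, differences between conditions hold for these libraries.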
